A study of Mus musculus with 6 samples.

Results

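Collagen VI and the short-chain and network-forming collagens were followed through 10 genes: *Col6a1* to *Col6a6*, *Col28a1*, *Col8a1*, *Col8a2* and *Col10a1*. All 10 were matched by symbol among the 27179 genes of the count table. Bulk RNA-seq was performed on fibroblasts of the mammary glands of pubertal FVB/N mice (FVB/NJ in the study's methods) at 6 weeks of age, sorted as Lin-CD24-Pdgfrα+ cells and then divided by surface CD34 into CD34hi and CD34lo fractions. No transgene or treatment is named for these mice, and each of 3 pools of 2 mice gave 1 CD34hi and 1 CD34lo library, so that the 6 libraries were paired by pool. No library represents a single mouse, and the cells within a gate were not resolved further.

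Collagen VI forms beaded microfibrils around cells. Its building block joins the chains encoded by *Col6a1* and *Col6a2* with a longer chain encoded by *Col6a3*, and these monomers pair and pair again inside the cell before they are secreted and joined end to end. The chains encoded by *Col6a4*, *Col6a5* and *Col6a6* are relatives of the *Col6a3* chain and can take its place in the monomer. The *Col6a3* chain also carries a C-terminal fragment, endotrophin, that is cut off and is known from adipose tissue and mammary tumors. Collagen VIII (*Col8a1*, *Col8a2*) and collagen X (*Col10a1*) are short-chain collagens that build open lattices, the former in vessel walls and in Descemet's membrane of the eye and the latter in hypertrophic cartilage. Collagen XXVIII (*Col28a1*) carries von Willebrand factor A domains like those of collagen VI and is known from peripheral nerve.

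The genes lie in a few groups on the genome (GRCm38/mm10, coordinates of the deposited table). *Col6a1* (chr10:76708792-76726044) and *Col6a2* (chr10:76595756-76623404) are neighbors on the minus strand with 85387 bases between them. *Col6a6* (chr9:105689417-105828085), *Col6a5* (chr9:105856070-105960643) and *Col6a4* (chr9:105990318-106096691) follow each other on the minus strand of chromosome 9, with gaps of 27984 and 29674 bases. *Col6a3* (chr1:90766860-90843971) stands alone, as do *Col28a1* (chr6:7997808-8192617), *Col8a1* (chr16:57624256-57754737), *Col8a2* (chr4:126286794-126314330) and *Col10a1* (chr10:34389981-34397085).

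The 100 bases before the annotated start of the 7 members that passed the test described below are shown because the chains that can fill the same place in collagen VI, those of *Col6a3* and of *Col6a5* and *Col6a6*, differed in direction. They are RefSeq sequences of GRCm38.p6, written 5′ to 3′ on the strand of the gene, and capitals mark every match on either strand to GGGCGG (GC box) or CCCTCCC (a pyrimidine-rich CT element).
Col6a1 (chr10:76726045-76726144, minus strand): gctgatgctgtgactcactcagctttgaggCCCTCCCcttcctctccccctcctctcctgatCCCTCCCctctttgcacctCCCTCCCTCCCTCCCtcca
Col6a2 (chr10:76623405-76623504, minus strand): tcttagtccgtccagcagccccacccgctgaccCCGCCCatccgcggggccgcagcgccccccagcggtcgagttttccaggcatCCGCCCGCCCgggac
Col6a3 (chr1:90843972-90844071, minus strand): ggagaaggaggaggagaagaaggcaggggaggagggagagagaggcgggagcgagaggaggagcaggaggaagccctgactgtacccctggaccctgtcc
Col6a5 (chr9:105960644-105960743, minus strand): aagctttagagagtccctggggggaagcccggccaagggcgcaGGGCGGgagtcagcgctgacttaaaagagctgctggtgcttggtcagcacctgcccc
Col6a6 (chr9:105828086-105828185, minus strand): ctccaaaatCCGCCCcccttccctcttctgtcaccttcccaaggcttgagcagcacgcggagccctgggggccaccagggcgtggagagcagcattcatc
Col8a1 (chr16:57754738-57754837, minus strand): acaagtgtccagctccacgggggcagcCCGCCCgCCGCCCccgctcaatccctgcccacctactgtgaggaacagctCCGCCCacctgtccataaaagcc
Col8a2 (chr4:126286694-126286793, plus strand): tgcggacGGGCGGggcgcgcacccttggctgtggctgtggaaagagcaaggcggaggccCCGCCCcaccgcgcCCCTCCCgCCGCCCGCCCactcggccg

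In the 250 bases before the start, *Col6a1* held 5 CT elements, of which the 3 nearest the start share letters with their neighbors, and no GC box. *Col6a2* held 3 GC boxes and 2 CT elements before the start used by the deposited table, and its other annotated start had 1 of each. *Col6a3* held 1 CT element and no GC box, while *Col6a5* and *Col6a6* held 1 and 2 GC boxes and no CT element. The members that did not pass the test showed the same patterns. *Col28a1* held 1 CT element and no GC box, *Col6a4* held 2 GC boxes and no CT element, and *Col10a1* held neither. Both *Col8a1* and *Col8a2* held 4 GC boxes and 1 CT element. Of all 32851 RefSeq promoters of this length, 32.7% held a GC box and 19.7% a CT element. TATAAA (12.4% of all promoters) was matched before *Col10a1* and before no other member, and CCAAT (33.8% of all) before *Col6a4* alone. These letter matches describe the windows and were not tied to binding data. Their part in the direction of the fold changes was not tested.

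Depth was between 28764779 and 52402410 counts on genes per library, so that 3 counts, the smallest amount taken as measurable, were worth 0.0553 to 0.108 CPM (per 1000000 counts of a library, after TMM normalization). This floor covers counting error only. *Cd34* itself, the gene of the sorting marker, lay between 2490 and 2639 CPM in CD34hi libraries and at 476, 793 and 632 CPM in the CD34lo libraries of pools 1, 2 and 3. Fibroblast genes were abundant in both fractions, with 754 ± 149 CPM (SD, n = 3) of *Pdgfra* in CD34hi and 1256 ± 197 CPM in CD34lo libraries. Log2 fold changes are CD34hi vs CD34lo and were estimated with edgeR (quasi-likelihood test), and its p-values were adjusted by the Benjamini-Hochberg method across the 15219 genes above the filter on low counts. An exact permutation test of a single value in 3 libraries against 3 cannot go below p = 0.1. In sorted bulk samples, fewer cells that express a gene and less RNA per cell cannot be told apart.

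CD34lo fibroblasts carried more RNA of the common collagen VI chains and of collagen VIII, and CD34hi fibroblasts carried more RNA of *Col6a5* and *Col6a6*. Of the 10 members, 8 passed the filter and 2, *Col6a4* and *Col10a1*, did not. At an adjusted p-value under 0.05, 5 members were higher in CD34lo and 2 were higher in CD34hi fibroblasts. Over all genes tested, 35.6% passed, 18.7% with higher levels in CD34lo and 16.9% with higher levels in CD34hi fibroblasts. The median log2 fold change was -1.01 over the 8 tested members and -0.0064 over all genes tested. Together the 10 genes took 1.04% to 1.20% of all counts in CD34lo libraries and 0.494% to 0.516% in CD34hi libraries.

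**Figure D1:**
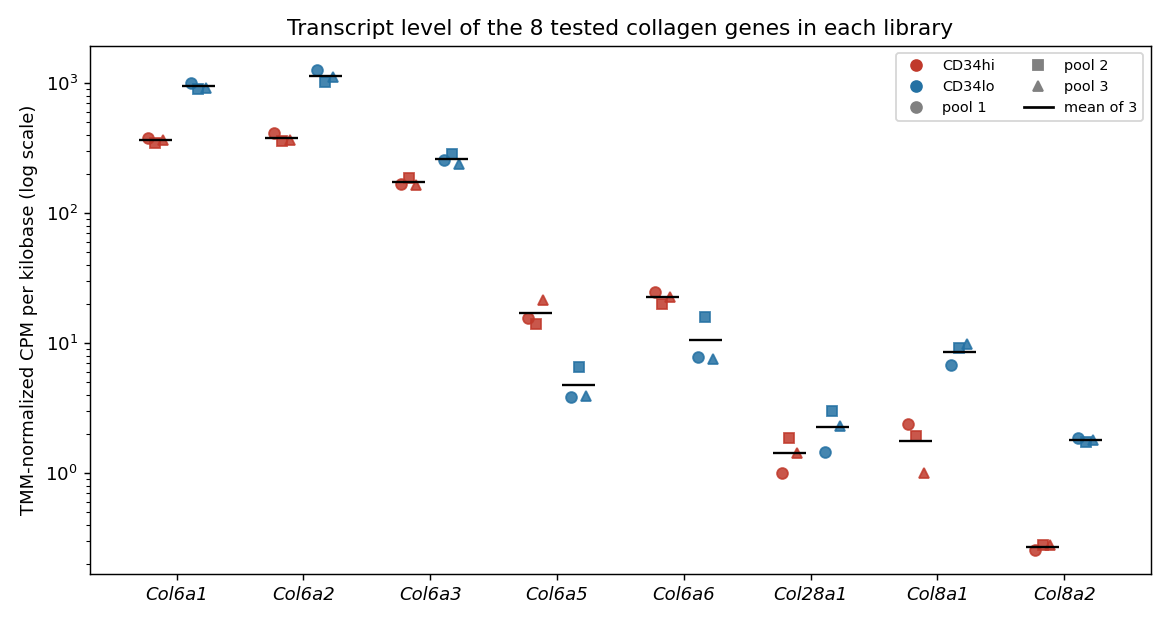
Level of the 8 tested members in each library, as TMM-normalized CPM per kilobase of gene model on a log axis; colors are the sorted fractions, symbols the mouse pools and bars the means of 3 libraries. *Col6a1* and *Col6a2* lie highest, at 908 to 1266 in CD34lo libraries, and *Col6a5* and *Col6a6* are the only tested members whose CD34hi mean is above the CD34lo mean.

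*Col6a1*, which encodes a chain that every collagen VI monomer needs, had 1519, 1383 and 1452 CPM in the CD34hi libraries of pools 1, 2 and 3 and 4007, 3611 and 3659 CPM in the CD34lo libraries. The 2 fractions did not overlap, and all CD34lo libraries were above all CD34hi libraries. *Col6a1* was 2.59-fold higher in CD34lo, at a log2 fold change of -1.37 with a standard error of 0.14 (adjusted p = 0.000124, edgeR). *Col6a2*, its obligatory partner, had 1553, 1334 and 1375 CPM in CD34hi and 4723, 3781 and 4198 CPM in CD34lo libraries. The libraries again separated completely, and pool 1 was highest in both fractions. *Col6a2* was 2.98-fold higher in CD34lo, with a log2 fold change of -1.58 and a standard error of 0.16 (adjusted p = 0.000108, edgeR). Within the pools, the log2 ratio of CD34hi to CD34lo lay between -1.40 and -1.33 for *Col6a1* and between -1.61 and -1.50 for *Col6a2*. By mean CPM, *Col6a2* was gene number 17 and *Col6a1* number 19 of the table in CD34lo, and numbers 89 and 86 in CD34hi fibroblasts.

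*Col6a3*, which encodes the long chain and its endotrophin fragment, differed less. It had 1831, 2037 and 1803 CPM in CD34hi and 2772, 3116 and 2611 CPM in CD34lo libraries. The fractions did not overlap, and in each of them pool 2 was highest. The gene was 1.50-fold higher in CD34lo, and the log2 fold change was -0.58 with a standard error of 0.15 (adjusted p = 0.0138, edgeR). This call was lost without pool 1 (adjusted p = 0.146), without pool 2 (0.0767) and without the CD34hi library of pool 1 (0.0674), and the log2 fold change stayed between -0.64 and -0.51 over its 16 alternatives, where the adjusted p (edgeR, limma-voom or DESeq2) ranged from 6.56e-05 to 0.146.

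*Col6a5* and *Col6a6*, the neighbors on chromosome 9 whose chains can stand in for that of *Col6a3*, went the other way. *Col6a5* had 147, 130 and 199 CPM in CD34hi and 35.8, 60.7 and 36.4 CPM in CD34lo libraries. Every CD34hi library was above every CD34lo library, and the gap was narrowest in pool 2. This amounted to 3.58-fold higher levels in CD34hi, a log2 fold change of 1.84 with a standard error of 0.24 (adjusted p = 0.000494, edgeR). *Col6a6* had 187, 150 and 169 CPM in CD34hi and 58.7, 120 and 56.7 CPM in CD34lo libraries. The fractions did not overlap, but the CD34lo library of pool 2 stood near the CD34hi libraries. *Col6a6* was 2.15-fold higher in CD34hi, at a log2 fold change of 1.10 with a standard error of 0.28 (adjusted p = 0.0135, edgeR), and within the pools the log2 ratio was 1.67, 0.32 and 1.57. The same CD34lo library of pool 2 had the highest *Cd34* level of its fraction, and the part of this in the *Col6a5* and *Col6a6* values was not tested. The *Col6a6* call was lost without pool 1 (log2 fold change 0.88, adjusted p = 0.0885) and without pool 3 (0.92, adjusted p = 0.0923), and over its 16 alternatives the adjusted p ranged from 0.000164 to 0.0923 (edgeR, limma-voom or DESeq2). *Col6a4*, the third gene of that row and the next one along the chromosome, had 0, 0 and 2 counts in CD34hi and 3, 5 and 0 counts in CD34lo libraries. It was at or under the floor of 3 counts in all but 1 library and was not detectable enough to compare.

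**Figure D2:**
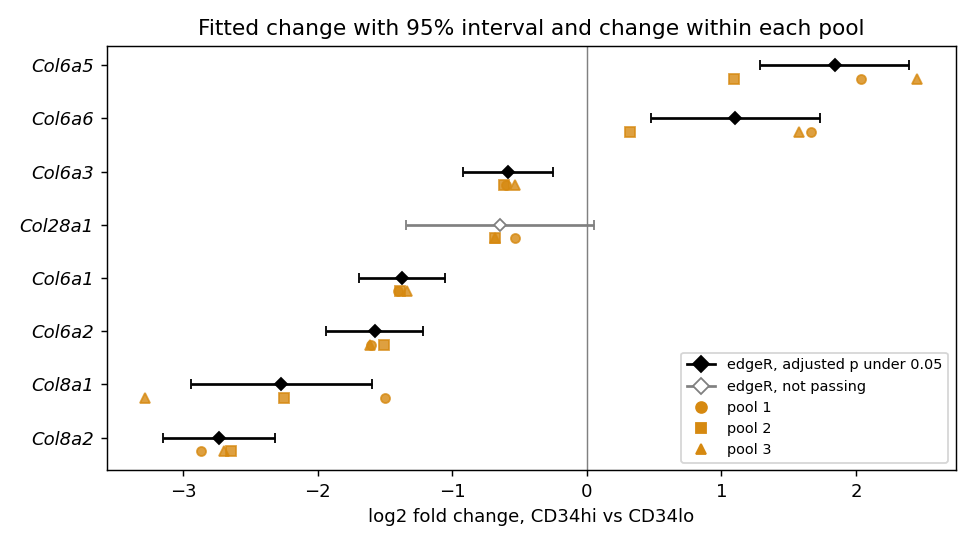
Log2 fold change (CD34hi vs CD34lo) of the 8 tested members; diamonds and bars give edgeR's estimate with its 95% interval, and the small symbols the change within each mouse pool. *Col6a5* and *Col6a6* lie to the right of 0 in all 3 pools, the other 6 lie to the left, and the interval of *Col28a1* includes 0.

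Since the chains have to meet in 1 molecule, the ratios of their transcripts were compared within each library, which removes the scaling of the library. Ratios of RNA do not give the ratios of the chains as protein, which were not measured in these libraries. Ratios between genes are given per kilobase of gene model, and differences between fractions as log2 differences of the count ratio, which do not depend on gene length. Of 8 ratios listed, 7 could be compared, and that of *Col6a4* to *Col6a3* could not because *Col6a4* was too low. The *Col6a1* to *Col6a2* ratio was 0.918, 0.972 and 0.991 in the CD34hi libraries of pools 1, 2 and 3 and 0.796, 0.896 and 0.817 in the CD34lo libraries. These partners were thus at similar levels per length in every library, with *Col6a2* the higher of the pair in all 6. The log2 difference of the ratio was 0.20, between 0.12 and 0.28 in the 3 pools.

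The *Col6a3* to *Col6a1* ratio was 0.442, 0.540 and 0.455 in CD34hi and 0.254, 0.316 and 0.262 in CD34lo libraries. The fractions did not overlap, and the mean difference was 1.73-fold, with a log2 difference between 0.77 and 0.80 in each pool. Against *Col6a2*, the *Col6a3* ratio was 0.461 ± 0.060 (SD, n = 3) in CD34hi and 0.233 ± 0.044 in CD34lo libraries, a 1.99-fold difference. In all 3 pools the CD34hi fraction thus had the larger value for both ratios, although the level of *Col6a3* itself was lower in CD34hi.

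The ratio of *Col6a5* to *Col6a3* was 0.0933, 0.0743 and 0.129 in CD34hi and 0.0151, 0.0227 and 0.0163 in CD34lo libraries, a 5.44-fold difference. The ratio of *Col6a6* to *Col6a3* was 0.148, 0.107 and 0.136 in CD34hi and 0.0307, 0.0558 and 0.0315 in CD34lo libraries, a 3.41-fold difference. Both had their larger value in CD34hi in 3 of 3 pools, and pool 2 gave the smallest log2 difference for each, 1.71 and 0.94. The ratio of *Col6a5* to *Col6a6* was 0.471 ± 0.057 (SD, n = 3) in CD34lo and 0.758 ± 0.167 in CD34hi libraries, and *Col6a6* was the higher of the pair per length in all 6 libraries. For these 6 collagen VI ratios the fractions did not overlap, and each gave p = 0.1, the smallest value of the exact two-sided permutation test, and p = 0.117 after Benjamini-Hochberg adjustment over the 7 ratios. These ratios share genes and some follow from the others, so they are not separate results. How often ratios of other genes separate in this way was not examined. With the pools as replicate block, the exact sign-flip test gave 0.25, again the smallest possible.

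**Figure D3:**
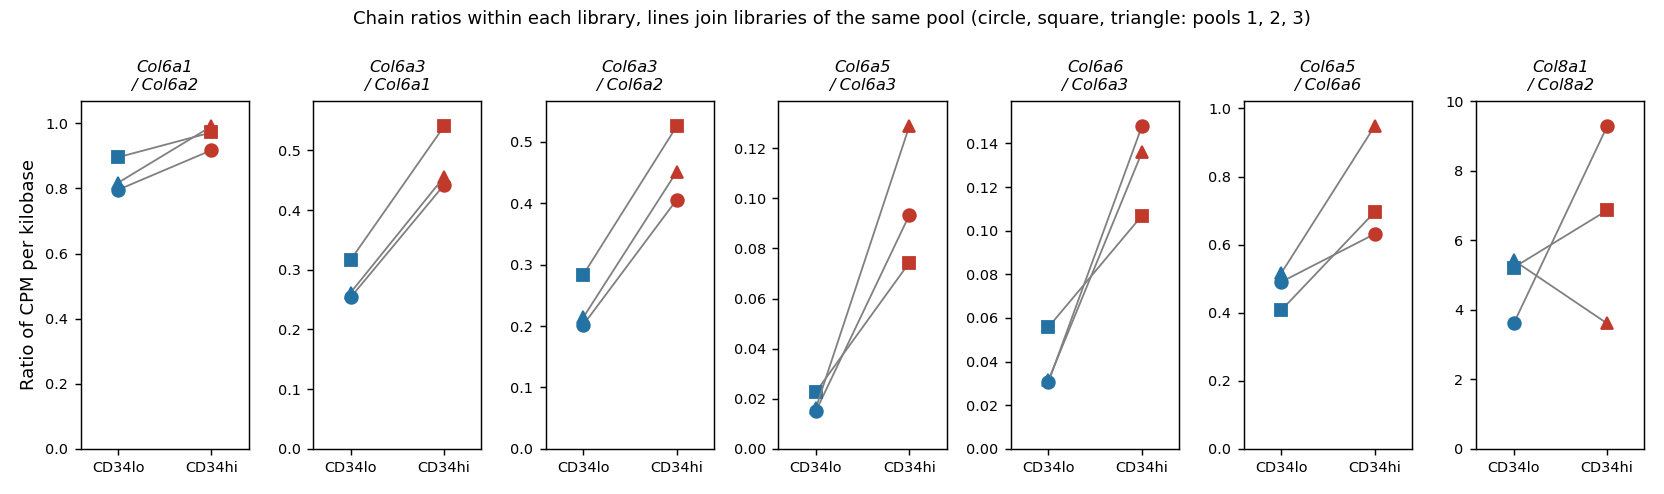
Ratio of 2 genes within each library (CPM per kilobase of the first over that of the second, each panel from 0), with lines joining the CD34lo and CD34hi library of a pool. The CD34hi end of every line is the upper one in the 6 collagen VI panels, on average 1.73-fold for *Col6a3* over *Col6a1*, and those of *Col8a1* over *Col8a2* cross.

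*Col6a3* and its relatives were also summed, a choice made after these values were seen. Per kilobase, *Col6a5* and *Col6a6* made up 19.4%, 15.3% and 20.9% of the summed *Col6a3* to *Col6a6* level in the CD34hi libraries of pools 1, 2 and 3, and 4.38%, 7.28% and 4.56% in the CD34lo libraries. *Col6a3* remained the main transcript of this sum in every library, with 79.1% to 84.7% in CD34hi and 92.7% to 95.6% in CD34lo. The difference in the *Col6a5* and *Col6a6* share was 15.1, 8.06 and 16.4 percentage points in the pools, with p = 0.1 in the exact permutation test, the smallest it can give. This separation follows from the ratios of *Col6a5* and *Col6a6* to *Col6a3* given above and is not a further result. The summed level of these chains was 214 ± 6.88 CPM per kilobase (SD, n = 3) in CD34hi and 277 ± 29.9 in CD34lo, against 373 ± 23.9 and 1040 ± 89.3 for the mean of *Col6a1* and *Col6a2*. The ratio of the former to the latter was 0.576 ± 0.052 in CD34hi and 0.268 ± 0.048 in CD34lo libraries.

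**Figure D4:**
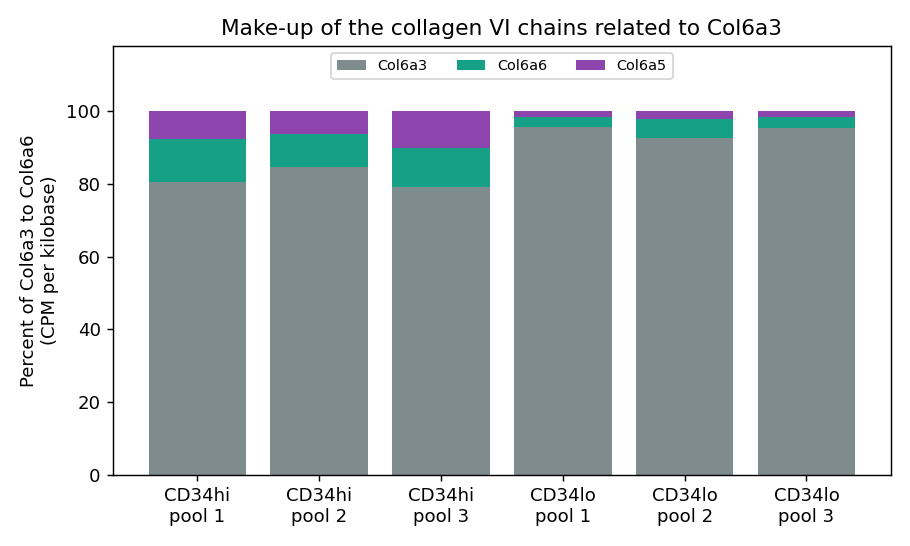
Share of *Col6a3*, *Col6a6* and *Col6a5* in the summed level of *Col6a3* to *Col6a6* (CPM per kilobase) in each library; *Col6a4* is too low to be seen. *Col6a5* and *Col6a6* together reach 15.3% to 20.9% in CD34hi and 4.38% to 7.28% in CD34lo libraries.

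The likeness of the 3 main chains to other genes was described by Pearson's r of log2 CPM over the 6 libraries, among 8872 other genes with a mean log2 CPM of at least 3. The libraries share pools and fall into the 2 fractions, and 705 genes had r above 0.95 with *Col6a1*. *Col6a2* was number 16 in the order of likeness to *Col6a1* (r = 0.998) and *Col6a1* number 13 in that of *Col6a2*. *Col6a3* was only number 852 and number 991 in the same orders, with r = 0.935 and 0.916. The genes most like *Col6a1* were *Col7a1*, *Notch1*, *Pear1*, *Hc* and *Scube1*, those most like *Col6a2* were *Mpzl1*, *Notch1*, *Rgs2*, *Slc50a1* and *Hic2*, and those most like *Col6a3* were *Atp2a2*, *Csf2rb*, *Rbp4*, *Arid5b* and *Fndc5*, all with r of at least 0.990.

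*Col8a1* and *Col8a2*, the chains of collagen VIII, were the members with the largest fold difference, at low levels. *Col8a1* had 12.2, 9.82 and 5.16 CPM in the CD34hi libraries of pools 1, 2 and 3 and 34.6, 46.7 and 50.2 CPM in the CD34lo libraries. The fractions did not overlap, and pool 1 had the smallest and pool 3 the largest difference. *Col8a1* was 4.83-fold higher in CD34lo, with a log2 fold change of -2.27 and a standard error of 0.30 (adjusted p = 0.000454, edgeR). *Col8a2* had 1.12, 1.21 and 1.21 CPM in CD34hi and 8.13, 7.59 and 7.84 CPM in CD34lo libraries. Its replicates were close within each fraction, and the gene was 6.64-fold higher in CD34lo, at a log2 fold change of -2.73 with a standard error of 0.18 (adjusted p = 1.32e-05, edgeR). The counts behind the CD34hi values of *Col8a2* were 50, 44 and 55.

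Per kilobase, *Col8a1* exceeded *Col8a2* in every library, by 9.27-, 6.86- and 3.61-fold in CD34hi and by 3.61-, 5.21- and 5.42-fold in CD34lo libraries. This ratio overlapped between the fractions, with a mean log2 difference of 0.38, pool values of 1.35, 0.38 and -0.60, and p = 0.5 in the exact permutation test (0.5 after adjustment over the 7 ratios). Collagen VIII is also made by smooth muscle and endothelial cells. The lineage depletion of the study was directed at CD31 (the product of *Pecam1*), CD45 and TER-119, and the gate required Pdgfrα. All 6 mural markers examined (*Rgs5*, *Notch3*, *Myh11*, *Acta2*, *Des* and *Mcam*) were higher in CD34lo, with a summed level of 106 to 144 CPM against 11.5 to 14.2 CPM in CD34hi libraries. Of 6 endothelial markers, *Pecam1*, *Cdh5* and *Emcn* were higher in CD34lo and *Kdr* was higher in CD34hi, and the summed level was 29.7 to 42.0 CPM in CD34lo and 47.0 to 90.1 CPM in CD34hi. *Kdr* carried most of the CD34hi sum, and without it the other 5 summed to 25.2 to 36.5 CPM in CD34lo and 7.58 to 19.2 CPM in CD34hi. None of these markers was at 0 in all libraries, and their part in the *Col8a1* and *Col8a2* difference was not tested.

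*Col28a1*, the collagen known from nerve, was low in both fractions and did not pass. It had 4.23, 7.95 and 6.09 CPM in CD34hi and 6.12, 12.7 and 9.77 CPM in CD34lo libraries. The fractions overlapped, yet within each pool the CD34lo library was the higher, and pool 2 was highest and pool 1 lowest in both fractions. The log2 fold change was -0.64 (95% interval -1.34 to 0.05, adjusted p = 0.136, edgeR). With the pool as replicate block it was -0.63 and passed (adjusted p = 0.00870, edgeR), and log2 ratios within the pools were -0.54, -0.68 and -0.68. It also passed without the CD34lo library of pool 1 (-0.86, adjusted p = 0.0478), and over its 16 alternatives the adjusted p ranged from 0.00758 to 0.381 (edgeR, limma-voom or DESeq2). Among Schwann cell markers, *S100b* (5.71 CPM in CD34hi and 12.6 CPM in CD34lo) and *Cdh19* (0.461 and 4.66 CPM) were higher in CD34lo, and *Mbp* (41.4 and 11.3 CPM) and *Erbb3* (3.55 and 0.613 CPM) were higher in CD34hi. The glial factor *Sox10* did not pass, at 0.379 CPM in CD34hi and 0.512 CPM in CD34lo, nor did *L1cam*, at 0.263 and 0.579 CPM. *Foxd3* had 4 counts in all libraries together. These are means of 3 libraries, and their part in the *Col28a1* values was not tested.

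*Col10a1* had 1, 1 and 1 counts in CD34hi and 0, 3 and 2 counts in CD34lo libraries, at or under the floor of 3 counts in all 6, and no fold is given. It lies opposite *Nt5dc1*, which had 2747 counts in total, and a count without strand could not separate them. The other genes of the hypertrophic cartilage program, in which collagen X is known, were measurable in part. Of 10 such genes 7 were tested, and 4 were higher in CD34lo and 1 in CD34hi fibroblasts, with a median log2 fold change of -1.75. Among all genes tested, 18.7% were higher in CD34lo and 16.9% in CD34hi. *Runx2*, the transcription factor of that program, had a log2 fold change of -4.23, *Col2a1* -2.97 and *Alpl* -1.75, and *Mef2c* had 1.33. Mean levels in CD34hi and CD34lo were 5.21 and 98.5 CPM for *Runx2* and 52.2 and 20.8 CPM for *Mef2c*. Those of *Col2a1* (0.461 and 3.63 CPM) and *Alpl* (1.37 and 4.60 CPM) were low in both fractions. *Mmp13* also passed, with 1 count in CD34hi and 59 counts in CD34lo libraries together, a ratio of 65.9 with an exact 95% counting interval of 11.4 to 2645, and the median of the list was -1.75 with *Mmp13* at the low end of it too. *Sox9* (-0.34) and *Spp1* (-0.73) did not pass, *Sp7* and *Ibsp* had 0 counts in all libraries, and *Acan* with 38 counts did not pass the filter.

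The order of the levels per kilobase was *Col6a2*, *Col6a1*, *Col6a3*, *Col6a6*, *Col6a5*, *Col8a1*, *Col28a1* and *Col8a2* in CD34hi fibroblasts. In CD34lo fibroblasts *Col8a1* (8.57 ± 1.60 CPM per kilobase, SD, n = 3) stood between *Col6a6* (10.5 ± 4.81) and *Col6a5* (4.76 ± 1.53). In CD34hi, the ranges of the neighbors *Col6a2* and *Col6a1*, of *Col6a6* and *Col6a5* and of *Col8a1* and *Col28a1* overlapped. In CD34lo, those of *Col6a6* and *Col8a1* and of *Col28a1* and *Col8a2* did. All other neighbors in the order were separated in all libraries of the fraction. The 3 main chains held 92.4% to 94.1% of the members' counts in CD34hi and 97.7% to 98.8% in CD34lo libraries.

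The surroundings of collagen VI were read from a list of 26 receptors, binding partners and processing enzymes, of which 24 were tested. In this list 9 were higher in CD34hi, 9 were higher in CD34lo and 6 did not pass, with a median log2 fold change of -0.16. The share of all tested genes that passed was 35.6%, with 16.9% higher in CD34hi and 18.7% higher in CD34lo. Among the receptors, *Antxr1* and *Antxr2*, which bind collagen VI or its endotrophin fragment, were higher in CD34hi (log2 fold changes 1.19 and 1.52, adjusted p = 0.000171 and 0.000485, edgeR), while *Cspg4*, the proteoglycan NG2, was higher in CD34lo (-2.57). The integrin genes split, with *Itga2* (2.69) and *Itga11* (429 ± 94.9 CPM in CD34hi and 93.3 ± 34.5 CPM in CD34lo) higher in CD34hi and *Itga1* (-2.19) and *Itga10* (-1.91) higher in CD34lo, and their common partner *Itgb1* did not pass (-0.09, standard error 0.14). Of the collagen receptor kinases, *Ddr2* was higher in CD34hi (1.27) and *Ddr1* did not pass (-0.23).

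Among the matrix partners, the matrilin genes also split. *Matn4* had a mean of 49.2 CPM in CD34hi and 6.17 CPM in CD34lo libraries (log2 fold change 2.99, standard error 0.24), and *Matn2* had 26.4 and 191 CPM (-2.85, standard error 0.16). *Matn1* had 0 counts and *Matn3* 2 counts in all libraries together. The small proteoglycan genes *Fmod* (-5.19), *Bgn* (-2.37) and *Lum* (-1.28) and the basement membrane genes *Vwa1* (-2.55) and *Hspg2* (-0.65) were higher in CD34lo, and *Fn1* (1.29) and *Tnxb* (1.20) were higher in CD34hi. *Dcn*, the decorin gene, did not pass (-0.34, standard error 0.18), nor did *Mfap2* (0.07). *Bmp1*, whose protease can release endotrophin, was higher in CD34hi (1.02, adjusted p = 0.000474, edgeR), whereas *Mmp11* (-1.18, adjusted p = 0.0673, edgeR) and *Mmp14* (-0.04) did not pass. *Cspg4* is also a gene of mural cells. The mural levels given above moved in the same direction, and their part in the *Cspg4* difference was not tested.

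**Figure D5:**
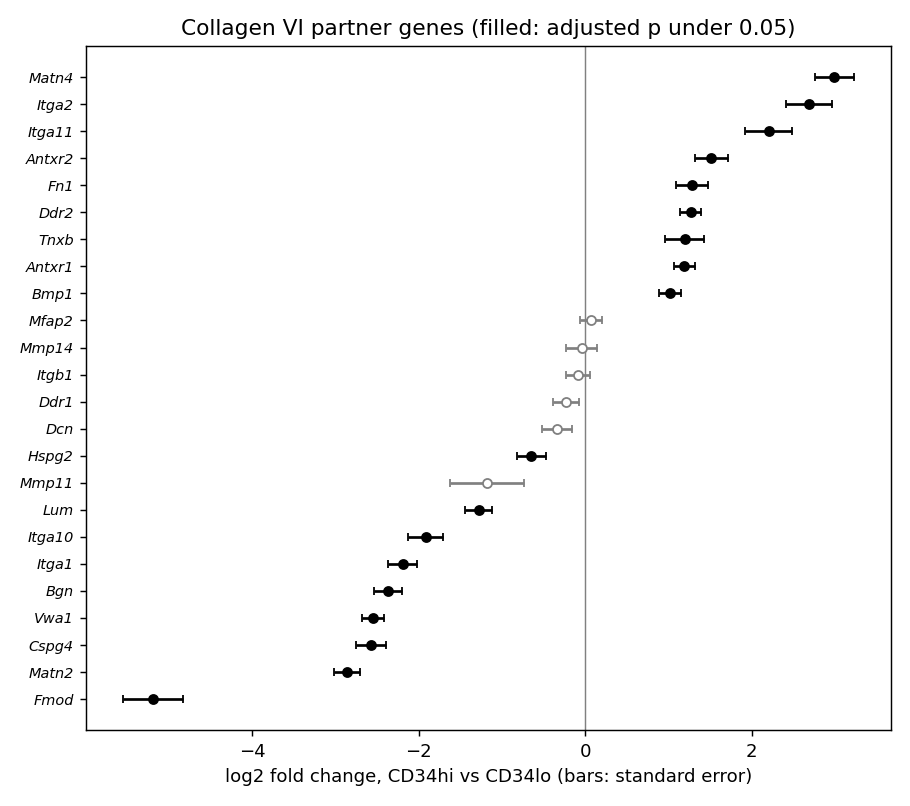
Log2 fold change (CD34hi vs CD34lo) of the 24 tested partner genes of collagen VI, with edgeR's standard error as bars and filled symbols for an adjusted p-value under 0.05. The list spreads from -5.19 (*Fmod*) to 2.99 (*Matn4*), with 9 genes passing on each side.

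Collagens also need common enzymes and chaperones for folding and export. Of 15 such genes, all tested, 6 were higher in CD34lo, 2 were higher in CD34hi and 7 did not pass, with a median log2 fold change of -0.33. Over all genes tested, 18.7% were higher in CD34lo and 16.9% in CD34hi. The 6 genes of the list higher in CD34lo were *Plod1* (-1.15), *P3h1* (-0.70), *Fkbp10* (-0.64), *Serpinh1* (-0.58), *Crtap* (-0.55) and *P4ha1* (-0.40), which encode collagen-modifying enzymes and chaperones. *Colgalt2* (1.39), a collagen galactosyltransferase gene, and *Mia3* (0.43), which encodes a receptor that loads collagen for export, were higher in CD34hi. *Plod3* (-0.29) and *Colgalt1* (-0.33), whose enzymes add the sugars that collagen VI carries, did not pass. With upper-quartile scaling, 9 were higher in CD34lo and 1 in CD34hi. Without pool 1, 3 genes of this list passed, 4 passed without pool 2, and 5 passed without the CD34hi library of pool 2. The call of *Mia3* was lost in 8 of its 16 alternatives, that of *Serpinh1* in 3, of *Crtap* in 2 and of *P3h1* in 1. Those of *Colgalt2*, *Plod1* and *Fkbp10* were kept in all 16, and *P4ha1* was not followed singly.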

How the data were processed

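Gene expression was measured by RNA-seq of poly(A) RNA from CD34hi and CD34lo mammary fibroblasts, 3 libraries each. The authors prepared TruSeq RNA v2 libraries, which keep no strand, aligned reads (GRCm38/mm10) and counted reads per gene using Rsubread. The deposited values are raw counts per gene, with gene model lengths. The annotation, the strand setting and the rule for reads with several positions are not given in the sources used here. Symbols came from RefSeq (25275 of 27179 genes matched).

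Counts were analysed with edgeR 4.0.16 in R 4.3.3 (filterByExpr by fraction, TMM, quasi-likelihood test, Benjamini-Hochberg adjustment, threshold 0.05). TMM factors ranged from 0.967 to 1.04, the biological coefficient of variation was 19.7%, and replicates differed by more than sampling noise (chi-square per degree of freedom at least 24.0). Standard errors are the log2 fold change over the root of F. Log2 ratios, their differences and their tests used counts plus 0.5, and ratios per kilobase used no added count. Both required 10 counts of both genes in every library. CPM per kilobase used the deposited lengths.

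Same-numbered libraries came from the same mice. Their deviations from the fraction means correlated across genes with r = 0.279, 0.0844 and 0.243. The study's methods name no block, so the fit had none, and the block was an alternative, with limma-voom (limma 3.58.1), DESeq2 1.42.0, RLE and upper-quartile scaling, no filter, and each pool or library left out. Some Schwann cell markers are not reported here. The members and lists were chosen with earlier results of these data known. All 10 members are named, with up to 5 passing genes per direction and list of largest change; other list genes were named after their values were seen. Of the other marker lists, leukocyte markers summed to 17.0 to 19.8 CPM in CD34hi and 7.20 to 11.8 in CD34lo libraries (3.02 to 3.73 and 5.53 to 7.14 without *Cd3e*), epithelial to 32.9 to 39.7 and 28.3 to 39.1, adipocyte to 0.179 to 0.690 and 0.482 to 1.81, keratinocyte to 14.6 to 20.1 and 3.85 to 7.44, and fibroblast markers to 40668 to 55231 and 66944 to 73016. *Col3a1* and *Col1a1* carried most of the fibroblast sum. Of the 7 fibroblast markers, 5 were higher in CD34lo, 1 did not pass and 1, *Pdpn*, was higher in CD34hi (means of 186 CPM in CD34hi and 50.5 CPM in CD34lo).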

Additional observations from a re-analysis of the deposited data

How the results depend on the processing

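The number of members that passed was 7, and it was 7 with limma-voom, DESeq2, RLE and upper-quartile scaling and without a filter on low counts. It was 8 with the replicate block, both in edgeR and limma-voom, since *Col28a1* was added, and 5 to 8 when 1 pool or 1 library was omitted. Of 128 comparisons of single members, 120 kept direction and call, 5 lost the call (*Col6a3* and *Col6a6*), 3 gained it (*Col28a1*) and 0 reversed. Of the 352 comparisons of the 22 list genes named for the size of their change, 14 lost the call and 0 reversed, and the other named list genes were not followed singly. The replicate block changed the call of none of these 22 genes, and in edgeR it added 1 gene each to the partner, folding and cartilage lists. Over all genes, 5411 passed, 3468 without replicate 1, and 3468 to 5236 over all such omissions. The block gave 6161 genes in edgeR. Upper-quartile scaling moved the median of all genes from -0.0064 to -0.059. The count for the folding list was 8, 3 to 9 over these omissions, 10 with upper-quartile scaling and 8 to 11 with the other alternatives. For the partner list it was 17 to 19 in all alternatives, and for the cartilage list 5 or 6.

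The log2 difference of the *Col6a5* to *Col6a3* ratio was 2.44, and 2.17 to 2.81 with a pool left out. That of *Col6a6* to *Col6a3* was 1.77, and 1.52 to 2.19. That of *Col8a1* to *Col8a2* ranged from -0.11 to 0.87. The difference in the share of *Col6a5* and *Col6a6* was 13.2 percentage points, 11.6 to 15.7 with a pool left out, and 10.7 as a share of raw counts, since *Col6a3* has the longest gene model. With the replicate block, the ratios and the share kept their values by construction and could not go below p = 0.25 in the exact sign-flip test. The cause of the changes with a pool left out was not tested. The number of libraries per fraction and the low counts of *Col6a4*, *Col10a1* and *Col8a2* limit the precision.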
